A study of Mus musculus with 6 samples.

Results

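The BCL2 family of apoptosis regulators was followed in the uterine epithelium of pregnant mice on 6 Affymetrix expression arrays. All probe sets that the platform annotation assigns to Bcl2, Bcl2l1, Mcl1, Bax, Bak1, Bid, Bbc3, Pmaip1, Bcl2l11 or Bmf alone were taken as members. This gave 30 of 45101 probe sets, which covered 9 of the 10 genes. Bax was not analysed here, because no probe set of it was listed in the annotation used. The 3 groups had 2 arrays each. They were Sox17 heterozygous mice on day 4 of pregnancy (arrays 253 and 281), which carry a GFP allele of Sox17 (Sox17GFP/+), wild-type (WT) mice on day 4 (arrays 277 and 284), and WT mice on day 1 (arrays 302 and 303), the day on which a plug was seen. All groups were female, and the epithelium was separated with pancreatin and dispase. Strain, age and whether an array held 1 animal or a pool are not given in the sources used here. The allele is not described as restricted to a cell type, so other cells of the mutant carry it too. Nothing states that the samples came from separate animals, so p-values measure only the spread between these samples, which may be technical.

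BCL2 family proteins set whether the outer membrane of mitochondria is opened, the step that releases cytochrome c and starts the caspases. Pro-survival members (BCL2, BCL-XL, MCL1) hold the pore-forming effectors BAX and BAK in check, and BH3-only proteins (BIM, PUMA, NOXA, BMF and, once cut by caspase 8, BID) bind the pro-survival proteins or activate the effectors. The luminal epithelium of the mouse uterus divides under estrogen around mating, is brought to rest by progesterone as implantation nears, and is lost where an embryo attaches. SOX17 is a transcription factor of this epithelium.

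Each array had been scaled to the same trimmed mean. In the dim range WT day 4 array 277 stood apart: its median was 138, while the remaining 5 had medians of 66.2 to 78.0. A signal under 50 is called dim below, and 27.0% of the probe sets were dim on array 277, against 41.6% to 44.6% on the others. Of the 2 Sox17 probe sets, 1421657_a_at had signals of 13304 and 13061 in Sox17 heterozygous epithelium, 22781 and 18473 in WT day 4 epithelium, and 2394 and 2478 in WT day 1 epithelium. Its change of heterozygous over WT day 4 was -0.64 ± 0.23 (log2, SE, adjusted p = 0.407 in limma). Probe set 1429177_x_at had 30189 and 28810 in heterozygous, 34794 and 35060 in WT day 4, and 7738 and 8671 in WT day 1 epithelium. On both, the heterozygous arrays were below the WT day 4 arrays, as the genotype labels have it, but neither difference passed the test. Whether these probes also read the GFP allele is not known. The 8 epithelial markers measured (among them Epcam, Cdh1 and Krt8) had summed signals of 152678 to 154564 in heterozygous, 147503 to 160340 in WT day 4 and 152423 to 159248 in WT day 1 samples, and none was dim in any group. The 9 stromal markers summed to 490 to 869 in heterozygous, 1668 to 2794 in WT day 4 and 3501 to 8928 in WT day 1 samples. Of these 9, 4 were dim in heterozygous, 1 in WT day 4 and 3 in WT day 1 samples. The 8 macrophage markers summed to 13709 to 14379 in heterozygous, 16849 to 17184 in WT day 4 and 21126 to 22579 in WT day 1 samples, of which Cd14 made up 80.3%. The median log2 change of the 8 was 1.19 for WT day 4 over WT day 1, opposite to the sum. Mrc1 and C1qa were dim in heterozygous and WT day 1 samples but not in WT day 4 samples. The 6 smooth muscle markers summed to 172 to 190 in heterozygous, 309 to 392 in WT day 4 and 891 to 893 in WT day 1 samples, the same order as the stromal markers. The 8 lymphocyte and NK markers summed to 186 to 206 in heterozygous, 396 to 975 in WT day 4 and 345 to 429 in WT day 1 samples. The 6 endothelial markers summed to 167 to 177 in heterozygous, 279 to 737 in WT day 4 and 166 to 279 in WT day 1 samples. These lists and the 5 neutrophil markers (62.6 to 85.7 in heterozygous, 139 to 260 in WT day 4 and 108 to 186 in WT day 1 samples) reached their highest sums on a WT day 4 array. So did the 3 erythrocyte markers, with at most 31.7 in heterozygous, 102 to 254 in WT day 4 and 19.5 to 33.4 in WT day 1 samples. Of the 8 lymphocyte and NK markers 7 were dim in heterozygous samples, as were all 5 neutrophil and all 3 erythrocyte markers. The part of these cells in the results below was not tested.

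The BH3-only genes Bmf, Pmaip1, Bcl2l11 and Bid and the effector Bak1 had lower signals in WT epithelium on day 4 than on day 1, while Bbc3 and the brightest Bcl2l1 probe set had higher ones. Bmf and Pmaip1 passed the default test. In Sox17 heterozygous day 4 epithelium Pmaip1, Bcl2l11, Bid, Bak1 and Bcl2l1 lay between the WT groups, Bmf overlapped WT day 4, and Bbc3 lay below both WT groups. A gene is represented by its brightest probe set, the one with the highest mean log2 signal, and its other probe sets are given beside it. Signals of different probe sets are not on a common scale, so levels are compared only between groups. In bulk samples fewer cells of a type and less RNA per cell cannot be told apart.

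**Figure D1:**
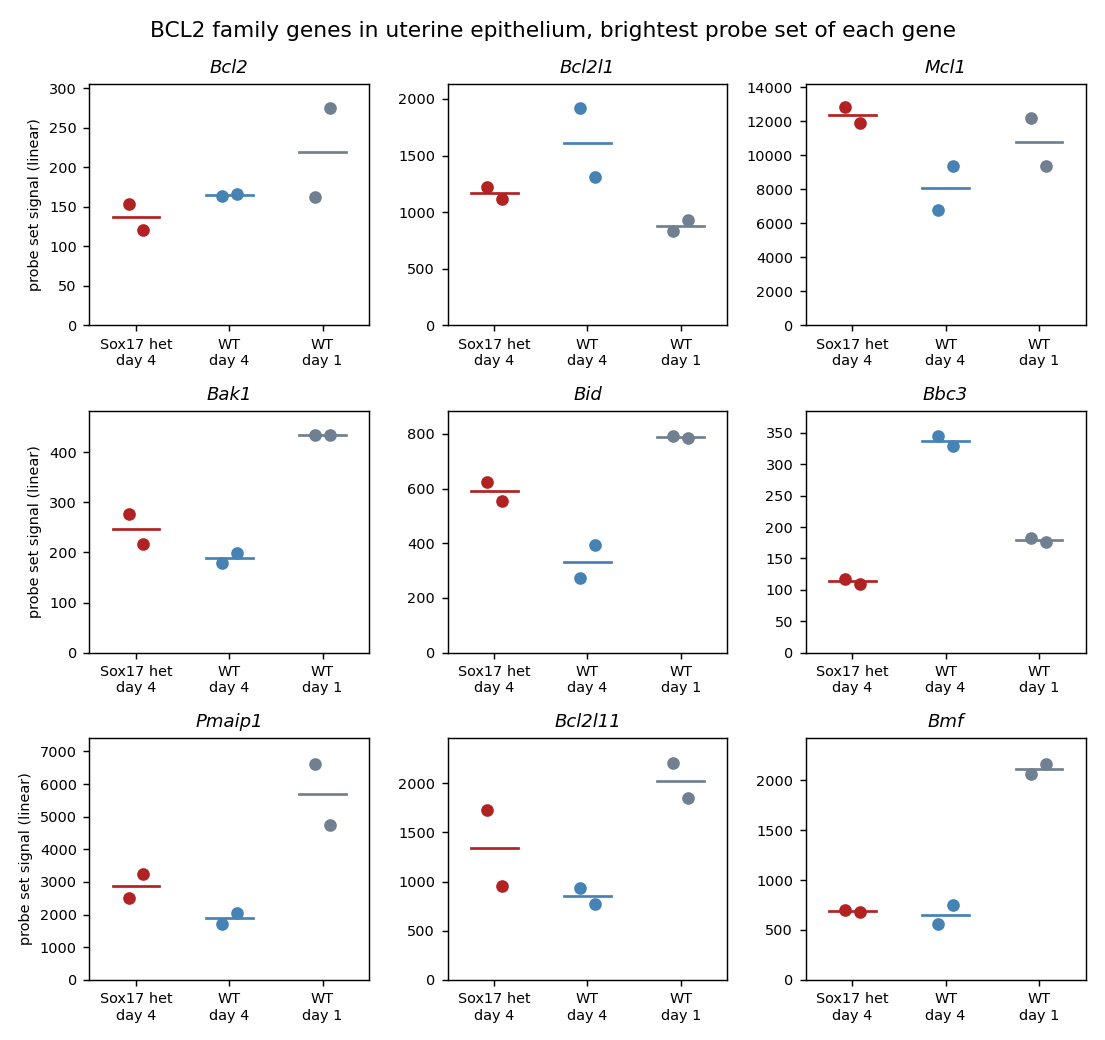
Linear probe set signal of the brightest probe set of each of 9 BCL2 family genes on every array, for Sox17 heterozygous day 4, WT day 4 and WT day 1 epithelium; points are arrays and lines are group means (n = 2). Bmf, Pmaip1, Bcl2l11, Bid and Bak1 were highest on both WT day 1 arrays, and Bbc3 was highest on both WT day 4 arrays and lowest on both heterozygous arrays.

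The first comparison asked how the family differed between WT day 4 and WT day 1 epithelium. In limma's test with Benjamini-Hochberg adjustment over all 34945 probe sets with a single gene symbol, 1 of the 30 member probe sets was higher and 2 were lower on day 4 at an adjusted p under 0.05. Of all probe sets tested, 5.04% were higher and 4.15% were lower, so these counts lay close to the background. The default prior of this test treats dim and bright probe sets alike. When the prior was allowed to follow the mean signal (the intensity trend fit), 1 member probe set was higher and 10 were lower, against 11.1% and 9.64% of all probe sets. The 10 belonged to 6 genes, and 4 of them to Bcl2l11 alone, so they are not independent of each other. The median log2 change was -0.997 over the 30 member probe sets and 0.24 over all probe sets. By brightest probe set, both WT day 4 arrays were below both WT day 1 arrays in 6 of 9 member genes, against 21.3% of all 18193 genes, and above them in 2 of 9, against 35.4%. Without array 277 the median of all probe sets was -0.013, so the general shift of 0.24 rested on that array. Without WT day 1 array 302 or 303, or without heterozygous array 253 or 281, the default fit called 0 of all 34945 probe sets (6285 to 7417 at an unadjusted p under 0.05), so each default call of this comparison was lost in those 4 fits. The 3 member calls were also lost after median centring, where 5.83% of all were called. With only the 4 WT arrays 0 of all probe sets were called. For this comparison the default fits to those 4 arrays, without array 253 and without array 281 are 1 and the same. A group with 1 array adds nothing to the spread, so these losses count once.

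**Figure D2:**
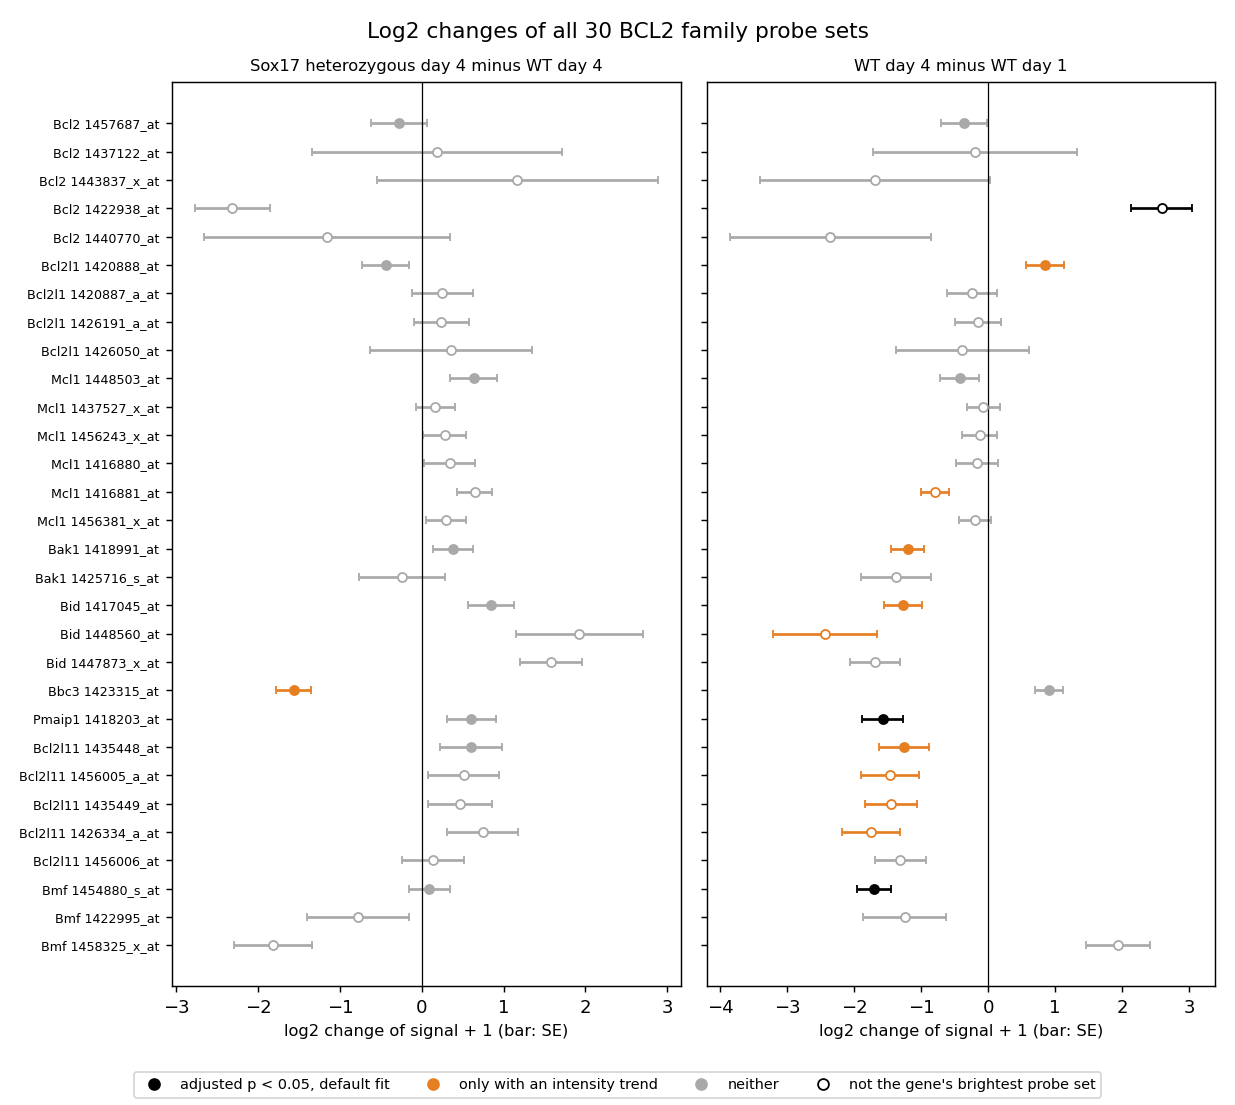
Log2 change of signal + 1 for all 30 member probe sets, Sox17 heterozygous minus WT day 4 at the left and WT day 4 minus WT day 1 at the right; points are estimates over 2 arrays per group, bars are limma's default standard errors, and colour marks the fit in which the adjusted p was under 0.05. The 5 Bcl2l11 and the 3 Bid probe sets all lie left of 0 for day 4 minus day 1 and right of 0 for heterozygous minus WT, and Bbc3 does the reverse.

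Among the pro-survival genes, Bcl2l1, which encodes BCL-XL, had 1218 and 1118 in heterozygous, 1922 and 1308 in WT day 4, and 832 and 927 in WT day 1 epithelium (probe set 1420888_at). Both WT day 4 arrays were above all other arrays, and both heterozygous arrays lay between the WT groups. The change of WT day 4 over WT day 1 was 0.85 ± 0.29 (log2, ± SE as in all that follows), a 1.80-fold higher signal, with an adjusted p of 0.153 in the default fit and 0.0115 with the trend. The other 3 Bcl2l1 probe sets had log2 changes between -0.39 and -0.15, and 1426050_at was dim on every array. The trend call was lost without WT day 1 array 302 (adjusted p = 0.0783) and after centring (0.500). The higher signal belonged to 1 of 4 probe sets, and the mean over all 4 changed by only 0.017. Which transcripts each probe set reads was not analysed here. For heterozygous against WT day 4, 1420888_at changed by -0.44 ± 0.29 (adjusted p = 0.559, trend 0.325), and this direction turned round to 0.0069 when arrays were centred on their medians and to 0.10 for the mean over probe sets.

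Mcl1, which encodes a short-lived pro-survival protein, was read by 6 bright probe sets. The brightest, 1448503_at, had 12852 and 11903 in heterozygous, 6783 and 9347 in WT day 4, and 12188 and 9365 in WT day 1 epithelium. The heterozygous arrays were above the WT day 4 arrays, while the WT groups were separated by only the small gap between 9347 and 9365. A second probe set, 1416881_at, had 4691 and 4665 in heterozygous, 2940 and 3040 in WT day 4, and 5504 and 4882 in WT day 1 epithelium. It showed the WT day 4 arrays apart from the other 4, with tight pairs. Its change of WT day 4 over WT day 1 was -0.79 ± 0.22 (adjusted p = 0.102, trend 0.00258), and its change of heterozygous over WT day 4 was 0.65 ± 0.22 (adjusted p = 0.384, trend 0.0504). The other 4 probe sets changed by between -0.20 and -0.072 for WT day 4 over WT day 1 and between 0.17 and 0.34 for heterozygous over WT day 4. All 6 thus had the same sign within both of these comparisons, but their sizes differed. In 3 of 6 both heterozygous arrays were above both WT day 4 arrays, against 18.4% of all probe sets. For heterozygous over WT day 1, 1416881_at changed by -0.15 and the others by 0.094 to 0.21.

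Bcl2, the first known pro-survival member of the family, was read by 5 probe sets. The brightest, 1457687_at, had 154 and 120 in heterozygous, 164 and 166 in WT day 4, and 163 and 276 in WT day 1 epithelium. The WT groups overlapped, and the heterozygous arrays were just below both. The changes were -0.28 ± 0.35 for heterozygous over WT day 4 (adjusted p = 0.747) and -0.36 ± 0.35 for WT day 4 over WT day 1 (adjusted p = 0.565). The first turned to 0.048 after quantile normalization and 0.17 after centring, and the second to 0.018 without WT day 1 array 303, so no direction is given for this probe set. The 1 member probe set called higher on WT day 4 was 1422938_at, another Bcl2 probe set, with 19.4 and 11 in heterozygous, 99.3 and 59.2 in WT day 4, and 9.43 and 14.9 in WT day 1 epithelium. It was dim in the heterozygous and WT day 1 samples. Its change of WT day 4 over WT day 1 was 2.59 ± 0.46 (adjusted p = 0.0419), but it did not pass with the trend (adjusted p = 0.0854) and was called higher in none of the 6 fits that left out 1 array. The other 3 Bcl2 probe sets were dim on some arrays and had standard errors of 1.5 to 1.7, so their log2 changes, from -2.36 to -0.20, carry little information.

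Of the pore-forming effectors, Bak1 was measured. Probe set 1418991_at had 278 and 218 in heterozygous, 178 and 199 in WT day 4, and 434 and 434 in WT day 1 epithelium. The 3 groups did not overlap, with WT day 1 highest and WT day 4 lowest. WT day 4 was 2.30-fold below WT day 1, a log2 change of -1.20 ± 0.24, at an adjusted p of 0.0558 in the default fit and 0.0112 with the trend (0.0864 without array 302, 0.0805 without 303 and 0.0736 after centring). Heterozygous over WT day 4 gave 0.38 ± 0.24 (adjusted p = 0.553, trend 0.545), with a 95% interval of -0.26 to 1.03. The second Bak1 probe set, 1425716_s_at, also had both WT day 4 arrays (103 and 37.9) below both WT day 1 arrays (176 and 152), but its heterozygous arrays (56.7 and 49.1) lay between those of WT day 4.

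Among the BH3-only genes, Bmf, whose protein is tied to the cytoskeleton and is freed when cells lose their anchorage, had the smallest p of the WT comparison. Its brightest probe set, 1454880_s_at, had 700 and 680 in heterozygous, 558 and 747 in WT day 4, and 2065 and 2166 in WT day 1 epithelium. All 4 day 4 arrays were far below both day 1 arrays, and the genotypes overlapped. Bmf fell on WT day 4 by 1.71 ± 0.25 on the log2 scale, to a level 3.27-fold below WT day 1 (adjusted p = 0.0291, trend 6.3e-05). It was also lower in heterozygous day 4 than in WT day 1 epithelium, by a log2 change of -1.61 ± 0.25 (adjusted p = 0.0410, trend 0.000124). This default call was lost without any 1 of the 4 arrays compared. It was kept without array 277 or 284, but both are the same default fit, that of the 4 arrays compared. The change of heterozygous over WT day 4 was 0.095 ± 0.25, with a 95% interval of -0.57 to 0.76, and it turned to -0.12 without array 277 and to -0.83 for the mean of the 3 probe sets. The default call for WT day 4 over WT day 1 was lost when any array but 284 was left out, with adjusted p from 0.0383 to 0.161 over the 6 fits, whereas the trend fit called it in all 6 (0.000134 to 0.000974). For the mean of the 3 probe sets the change of WT day 4 over WT day 1 was only -0.34 (adjusted p = 0.578) and that of heterozygous over WT day 1 -1.17 (adjusted p = 0.132), so neither call held. Of its other probe sets, 1422995_at changed by -1.25 ± 0.62 in the same comparison. Probe set 1458325_x_at was dim on every array and had the opposite sign (1.93 ± 0.48, adjusted p = 0.0841).

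Pmaip1, which encodes the MCL1-binding protein NOXA, had 2516 and 3258 in heterozygous, 1717 and 2057 in WT day 4, and 6619 and 4749 in WT day 1 epithelium on its only probe set. The 3 groups did not overlap, and the heterozygous arrays stood between the WT groups. Pmaip1 fell on WT day 4 by 1.58 ± 0.30, to a level 2.98-fold below WT day 1 (adjusted p = 0.0498, trend 0.000177). This default call was at the edge of the threshold and was lost without any 1 of the 6 arrays (adjusted p 0.0718 to 0.218), while the trend fit kept it each time (0.000179 to 0.00493). Heterozygous over WT day 1 gave -0.97 ± 0.30 (adjusted p = 0.158, trend 0.00593, but 0.0673 without array 302, 0.0862 without 253 and 0.486 after centring), and heterozygous over WT day 4 gave 0.61 ± 0.30 (adjusted p = 0.485, trend 0.168).

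Bcl2l11, which encodes BIM, a BH3-only protein that binds all pro-survival members, was read by 5 probe sets. Its brightest, 1435448_at, had 1732 and 952 in heterozygous, 932 and 768 in WT day 4, and 2207 and 1845 in WT day 1 epithelium. WT day 1 was highest without overlap, and the heterozygous pair was wide, with 1 array near each WT group. All 5 probe sets had both WT day 4 arrays below both WT day 1 arrays, with log2 changes from -1.75 to -1.25. None passed in the default fit (adjusted p = 0.124 for the brightest), and 4 passed with the trend (0.00446 for the brightest, and 0.000967 to 0.0452 without 1 array). For heterozygous over WT day 4 the 5 changes were between 0.14 and 0.75, and 3 of the 5 pairs of groups overlapped. Array 253 was the higher heterozygous array in all 5, and without it the brightest probe set changed by 0.17, against 0.60 ± 0.38 with it.

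Bid, whose protein links death receptors to the mitochondrial pathway, had 626 and 554 in heterozygous, 271 and 392 in WT day 4, and 793 and 785 in WT day 1 epithelium on its brightest probe set, 1417045_at. The 3 groups were separate, in the same order as for Pmaip1. WT day 4 was 2.41-fold below WT day 1 (log2 change -1.27 ± 0.28, adjusted p = 0.0653, trend 0.00232, 0.00166 to 0.0206 without 1 array, but 0.0654 after centring). Heterozygous over WT day 4 gave 0.85 ± 0.28, a 1.80-fold higher signal (adjusted p = 0.378, trend 0.0983). The other 2 Bid probe sets were dimmer and had the same signs. Probe set 1448560_at had 137 and 140 in heterozygous, 15.8 and 79.1 in WT day 4, and 194 and 203 in WT day 1 epithelium, and 1447873_x_at had 79.6 and 97.8 in heterozygous, 21.8 and 37.9 in WT day 4, and 112 and 81.1 in WT day 1 epithelium. In all 3, both heterozygous arrays were above both WT day 4 arrays. Without array 277, which was the lower WT day 4 array for each, the change of the brightest probe set was 0.58.

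Bbc3, which encodes PUMA, a p53-inducible activator of apoptosis, differed from the other BH3-only genes. It had 117 and 110 in heterozygous, 345 and 329 in WT day 4, and 183 and 175 in WT day 1 epithelium on its only probe set. The pairs were tight and the groups did not overlap, with WT day 4 highest and the heterozygous arrays lowest. Heterozygous over WT day 4 gave -1.56 ± 0.21, a 2.95-fold lower signal, with an unadjusted p of 0.00110 and an adjusted p of 0.200 in the default fit, in which none of the 34945 probe sets passed. The trend fit called it (adjusted p = 0.0395). That call was lost without WT day 1 array 302 (0.0690), 303 (0.0680), WT day 4 array 277 (0.0675) and heterozygous arrays 253 (0.289) and 281 (0.252), and was kept without 284 (0.0433). The log2 change over these 6 fits was -1.61 to -1.52. With the trend it was -1.11 after median centring (adjusted p = 0.427) and -1.41 after quantile normalization (0.0554), and neither was called. WT day 4 over WT day 1 gave 0.91 ± 0.21 (adjusted p = 0.0749, trend 0.0892), and heterozygous over WT day 1 gave -0.66 ± 0.21 (adjusted p = 0.169, trend 0.256). The stromal, smooth muscle, macrophage, neutrophil, and lymphocyte and NK marker sums given above were also lowest on both heterozygous arrays. Unlike Bbc3, the stromal, smooth muscle and macrophage sums were higher in WT day 1 than in WT day 4 samples. The endothelial and erythrocyte sums were not lowest on both heterozygous arrays. The part of these cells in the Bbc3 difference was not tested.

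By the likeness of their log2 signals over the 6 arrays, the genes nearest to Bbc3 among 9105 genes with a mean signal of at least 200 were Btbd3 (Pearson r = 0.994), Ifi30 (0.992) and Cebpg (0.982). Btbd3 had 667 and 702 in heterozygous, 1582 and 1593 in WT day 4, and 1035 and 1012 in WT day 1 epithelium. All 3 genes, which were picked for this likeness, were highest on both WT day 4 arrays and lowest on both heterozygous arrays, as Bbc3 was. The likeness is a description over 3 pairs of arrays.

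Promoter sequence was set beside these patterns for 3 of the genes with lower signals on WT day 4 than on WT day 1 (Bcl2l11, Bmf, Bak1) and for Bbc3, which ran the other way. Bid, also lower, and Bcl2l1, higher on its brightest probe set, are not shown, and their matches are given further below. Windows of 300 bases at 16 RefSeq (GRCm38.p6) start sites were searched, which covered 9 of the 10 family genes. The family search left out a chromosome by a filter that the search over all windows did not have. Pmaip1 had no window in the family search. The family shares below therefore do not cover Pmaip1. The 5 windows shown are those of Bcl2l11, Bmf, Bak1 and Bbc3 that held a match to 1 of 4 motifs, out of 9 windows of these 4 genes. Both strands were searched for TGTTTAC (FOXO factors, which switch on Bcl2l11 and Bbc3 in several cell types), ATTGTT (SOX factors), GGTCA (an arm of the estrogen response element) and TGTTCT (an arm of the progesterone response element). Over all 32851 promoter windows of this length, 3.65% held TGTTTAC, 10.7% ATTGTT, 40.5% GGTCA and 19% TGTTCT. Of the 16 family windows, 2 held TGTTTAC (12.5%), 2 ATTGTT (12.5%), 5 GGTCA (31.2%) and 0 TGTTCT. In the lines below, capitals mark the matches on either strand.
Bbc3, start 2 (chr7:16310011-16310310, plus strand): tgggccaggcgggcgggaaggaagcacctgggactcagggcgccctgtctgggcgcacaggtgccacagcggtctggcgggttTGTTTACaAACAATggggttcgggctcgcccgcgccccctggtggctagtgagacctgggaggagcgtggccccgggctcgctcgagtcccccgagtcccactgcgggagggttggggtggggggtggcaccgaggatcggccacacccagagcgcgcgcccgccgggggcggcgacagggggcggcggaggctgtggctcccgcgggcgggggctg
Bcl2l11, start 1 (chr2:128125788-128126087, plus strand): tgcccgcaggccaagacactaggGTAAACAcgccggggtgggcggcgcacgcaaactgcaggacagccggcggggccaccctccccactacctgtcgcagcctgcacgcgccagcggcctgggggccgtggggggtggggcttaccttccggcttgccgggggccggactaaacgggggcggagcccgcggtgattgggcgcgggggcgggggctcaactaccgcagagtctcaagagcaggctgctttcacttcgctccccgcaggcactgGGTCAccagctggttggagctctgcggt
Bcl2l11, start 2 (chr2:128127325-128127624, plus strand): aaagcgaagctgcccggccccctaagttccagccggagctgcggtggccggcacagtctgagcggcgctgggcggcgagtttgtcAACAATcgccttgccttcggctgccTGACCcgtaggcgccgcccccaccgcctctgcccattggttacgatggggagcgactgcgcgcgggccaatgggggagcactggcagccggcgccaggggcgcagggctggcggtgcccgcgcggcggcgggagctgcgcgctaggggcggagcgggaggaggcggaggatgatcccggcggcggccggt
Bmf, start 3 (chr2:118549637-118549936, minus strand): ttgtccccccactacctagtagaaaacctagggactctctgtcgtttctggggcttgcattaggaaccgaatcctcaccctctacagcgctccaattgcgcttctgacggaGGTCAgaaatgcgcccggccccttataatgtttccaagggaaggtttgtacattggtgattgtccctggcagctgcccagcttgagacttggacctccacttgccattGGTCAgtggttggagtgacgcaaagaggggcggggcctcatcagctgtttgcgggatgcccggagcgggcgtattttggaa
Bak1 (chr17:27028578-27028877, minus strand): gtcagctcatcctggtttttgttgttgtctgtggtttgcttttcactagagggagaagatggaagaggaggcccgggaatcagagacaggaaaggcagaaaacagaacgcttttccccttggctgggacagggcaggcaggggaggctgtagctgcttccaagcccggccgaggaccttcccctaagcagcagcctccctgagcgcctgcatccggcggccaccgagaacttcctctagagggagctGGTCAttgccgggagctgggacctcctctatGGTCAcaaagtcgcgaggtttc

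The Bbc3 window at start 2 held TGTTTAC at position -167 from its start site and, 1 base further on, ATTGTT on the other strand at -159. The first Bcl2l11 window held TGTTTAC at -227 on the other strand and GGTCA at 22, and the second held ATTGTT at -165 and GGTCA at -140, both on the other strand. GGTCA also stood at -139 and -31 in the Bmf window at start 3 and at -3 and 28 in the Bak1 window. The other 2 windows of Bbc3 and the other 2 of Bmf held 0 matches. GGTCA also had 3 matches in the Bcl2l1 window at start 1 (-247, -104 and -49), while the windows of Bid, Bax, Bcl2 and Mcl1 and the other 2 of Bcl2l1 held 0 of the 4 motifs. A match is a description, not a site or a cause, and no binding data were analysed here.

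The second comparison asked how Sox17 heterozygous epithelium differed from WT epithelium on day 4. Bbc3 had the smallest p of the members, with a 2.95-fold lower signal in heterozygous epithelium, and Mcl1, Bak1, Bid, Pmaip1 and Bcl2l11 had signals 1.30-fold to 1.80-fold higher that did not pass. In the default fit 0 of 30 member probe sets passed, and over all probe sets 0% passed as higher and 0% as lower. At an unadjusted p under 0.05, 3 member probe sets were higher (Mcl1 1416881_at, Bid 1417045_at and Bid 1447873_x_at) and 3 lower (Bbc3, Bcl2 1422938_at and Bmf 1458325_x_at), among 4186 probe sets in all. With the trend, 0 member probe sets were higher and 1, Bbc3, was lower, against 1.34% and 1.03% of all probe sets. The median change was 0.29 over member probe sets and -0.18 over all probe sets, and without array 277 the median of all was 0.020. By brightest probe set, both heterozygous arrays were above both WT day 4 arrays in 5 of 9 genes (Mcl1, Bak1, Bid, Pmaip1 and Bcl2l11), against 18% of all genes, and below in 3 of 9 (Bcl2, Bcl2l1 and Bbc3), against 30.6%. The 5 genes stayed higher in heterozygous epithelium in each alternative run, with log2 changes between 0.072 (Bak1, mean of its probe sets) and 1.45 (Bid, mean of its probe sets), and none of these 5 differences passed on its brightest probe set in the default or the trend fit of all 6 arrays. Without WT day 4 array 284 the changes of Mcl1 and Bid were 0.87 and 1.11, with a median of -0.39 over all probe sets. Without array 277 the changes of Mcl1 and Bid were 0.40 and 0.58, with a median of 0.020.

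Heterozygous day 4 was also set against WT day 1, a comparison that shares its arrays with the other 2. In the default fit 0 member probe sets were higher and 1 (Bmf) was lower, against 3.18% and 2.89% of all probe sets. With the trend 0 were higher and 4 lower (Bmf, Pmaip1 and 2 of Bcl2l11), against 9.21% and 7.92%. Both heterozygous arrays were below both WT day 1 arrays in 7 of 9 genes, against 30.1% of all genes, and above in 1, Bcl2l1, against 32.2%. Mcl1, which was the exception, overlapped. The median change over the 9 genes was -0.65, against 0.013 over all genes. In WT day 4 over WT day 1 the corresponding medians were -1.20 and 0.30.

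**Figure D3:**
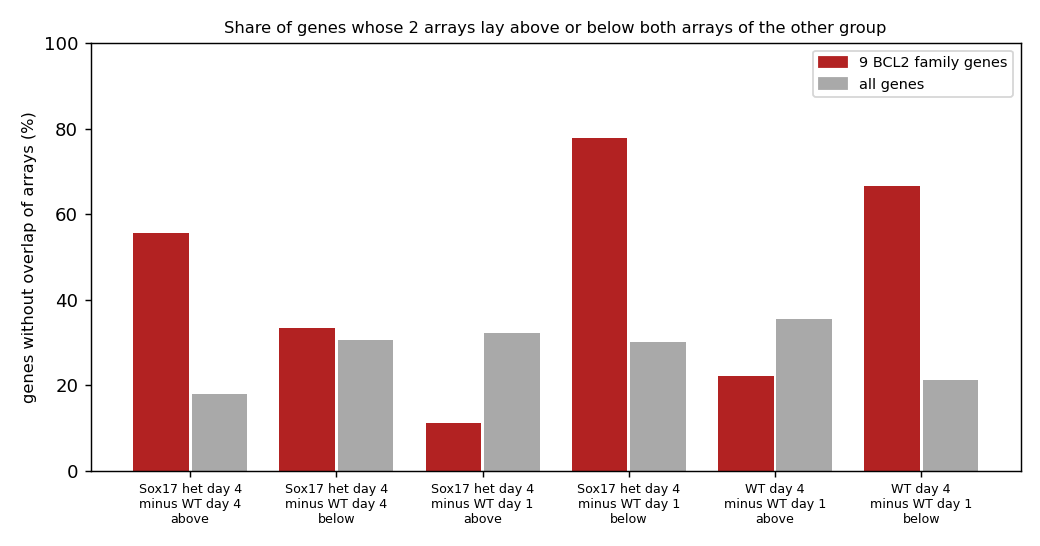
Share of genes (%) whose 2 arrays in the first-named group were both above or both below the 2 arrays of the other group, for the 9 BCL2 family genes and for all 18193 genes, by brightest probe set; the comparisons share arrays. The family had 6 of 9 genes below on WT day 4 against WT day 1, against 21.3% of all genes, and 5 of 9 above in heterozygous against WT day 4, against 18%.

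Genes around the family were read from 7 gene lists, each gene by its brightest probe set in the same fits. Over all 18193 genes by brightest probe set, 5.96% were called higher and 4.58% lower on WT day 4 than on WT day 1 in the default fit, and 13.7% and 10.6% with the trend. The default calls below were lost, as above, in the 4 fits without array 302, 303, 253 or 281. After centring 6 of the 15 genes of these lists called for WT day 4 over WT day 1 were still called (Apaf1, Bnip3, Bok, Cdkn1a, Fas and Tnfsf10). Of 11 other BCL2 family genes, 2 were lower and 0 higher on WT day 4 than on WT day 1. Bnip3, a mitochondrial BH3-like gene induced by hypoxia, had 905 and 977 in WT day 4, against 8416 and 5636 in WT day 1 epithelium (log2 change -2.87 ± 0.29, adjusted p = 0.0142). Bok, a relative of BAK, had 28.4 and 54.5 in WT day 4, against 396 and 334 in WT day 1 epithelium (log2 change -3.17 ± 0.40, adjusted p = 0.0222). The list's median was 0.27, close to that of all genes. With the trend 3 were higher and 3 lower.

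Downstream, of 12 caspase and apoptosome genes 2 fell and 0 rose on WT day 4 in the default fit, and 3 were lower and 3 higher with the trend. Apaf1, the scaffold on which caspase 9 is activated, had 160 and 100 in WT day 4, against 1032 and 1128 in WT day 1 epithelium (log2 change -3.08 ± 0.34, adjusted p = 0.0172). Casp6, an executioner caspase, had 1050 and 1273 in WT day 4, against 2857 and 2745 in WT day 1 epithelium (-1.28 ± 0.23, adjusted p = 0.0435). Both of these called genes had no overlap between days, as had 21.3% of all genes in the same direction. Birc3, which encodes an inhibitor of apoptosis protein, was the only 1 of 7 such genes called in the default fit (-1.62 ± 0.22, adjusted p = 0.0248), and with the trend 1 was lower and 1 higher. In the death receptor list of 10, where the trend fit called 1 higher and 4 lower, Tnfsf10, the ligand TRAIL (-3.73 ± 0.55, adjusted p = 0.0291), and the receptor Fas (-3.51 ± 0.44, adjusted p = 0.0217) fell, while Tnfrsf10b, the receptor for TRAIL, rose (1.45 ± 0.26, adjusted p = 0.0432). Both Fas signals on WT day 4 were dim.

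Of 14 p53 target genes, 4 rose and 3 fell on WT day 4 in the default fit (5 and 3 with the trend), with a median of 0.23, against 0.30 for all genes. By smallest p these included Ccng1, a cyclin-like p53 target (2.20 ± 0.30, adjusted p = 0.0249), and Sesn1, a stress-response gene (2.11 ± 0.29, adjusted p = 0.0265), which rose. Gadd45a, a DNA-damage response gene (-1.66 ± 0.22, adjusted p = 0.0251), and Trp53inp1 (-1.79 ± 0.25, adjusted p = 0.0272) fell. The family's own p53-inducible genes also differed in sign, at 0.91 for Bbc3, which did not pass, and -1.58 for Pmaip1. Of 14 regulators of BCL2 family transcription and stability 0 were called, and of 9 mitochondrial outer membrane channel genes 0 were called (2 regulators and 0 channel genes at an unadjusted p under 0.05 in limma). With the trend 1 regulator was higher and 1 lower, and no channel gene was called.

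**Figure D4:**
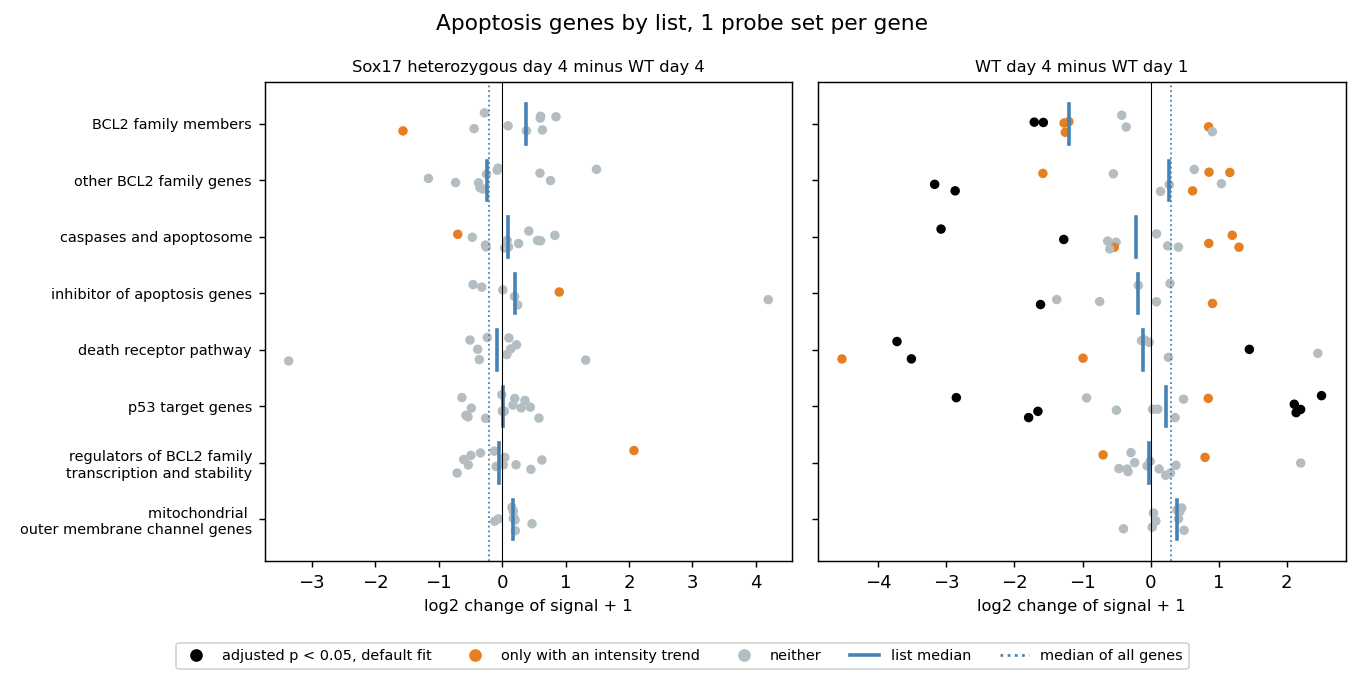
Log2 change of signal + 1 for the 9 BCL2 family genes and 7 lists of apoptosis genes, Sox17 heterozygous minus WT day 4 at the left and WT day 4 minus WT day 1 at the right; each point is 1 gene by its brightest probe set, short lines are list medians and the dotted line is the median of all genes. The family's median lies at -1.20 for WT day 4 minus WT day 1, against 0.30 for all genes, and at 0.38 for heterozygous minus WT, against -0.20.

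Between the genotypes on day 4 no gene of the 7 lists passed in the default fit. With the trend 3 of them did (2 higher and 1 lower, of 77), against 1.7% of all genes higher and 1.41% lower by brightest probe set. Stat5a, a transcription factor downstream of prolactin and cytokine receptors, had 1727 and 1345 in heterozygous, against 387 and 335 in WT day 4 epithelium (log2 change 2.08 ± 0.41, adjusted p = 0.255, trend 0.00610). Naip5, an inhibitor of apoptosis gene that also senses flagellin, had 6579 and 5612 in heterozygous, against 3245 and 3261 in WT day 4 epithelium (0.90 ± 0.24, trend 0.0182). Casp8, the initiator caspase that cuts BID, had 3480 and 3751 in heterozygous, against 5569 and 6182 in WT day 4 epithelium (-0.70 ± 0.22, trend 0.0380). In none of these 3, which were picked as trend calls, did the groups overlap. Over all genes 18% were above and 30.6% below without overlap. The Stat5a trend call was lost without heterozygous array 253 (0.0891). That of Naip5 was lost without WT day 4 array 277 (0.0594), without 253 (0.286) or 281 (0.0798), and after centring (0.371). That of Casp8 was lost without WT day 1 array 302 (0.0540) or 303 (0.0556), without 253 (0.411) or 281 (0.216), and after centring (0.875). Naip5 belongs to a family of near-identical copies, so its probe set may read several.

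For heterozygous day 4 over WT day 1, the default fit called 3.8% of all genes higher and 3.35% lower by brightest probe set (11.2% and 9.37% with the trend). Of the 77 genes in the lists it called Bnip3 (-2.95 ± 0.29, adjusted p = 0.0192), Apaf1 (-2.25 ± 0.34, adjusted p = 0.0384), Casp6 (-1.53 ± 0.23, adjusted p = 0.0379), Birc3 (-2.07 ± 0.22, adjusted p = 0.0217), Tnfsf10 (-3.50 ± 0.55, adjusted p = 0.0415) and Trp53inp1 (-1.49 ± 0.25, adjusted p = 0.0485) lower. It called Aifm1, a mitochondrial flavoprotein released during cell death (1.46 ± 0.24, adjusted p = 0.0451), Sesn1 (2.11 ± 0.29, adjusted p = 0.0335) and Ccng1 (1.95 ± 0.30, adjusted p = 0.0395) higher. After centring, 2 of these 9 (Bnip3 and Tnfsf10) were still called. This comparison and that of the WT groups use the same WT day 1 arrays. Bcl2a1a, Bcl2a1b, Bcl2a1d, Bnip3l, Naip1, Ripk1 and Trp53 were not analysed here, as the annotation used assigned them no probe set of their own.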

How the data were processed

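RNA of 6 epithelial samples was extracted with Trizol and labelled with biotin from 100 ng, per the labels' protocols. The deposited values are linear probe set signals, an intensity, made by the authors. Per the submitters' processing notes, the tools were Affymetrix Expression Console, Transcriptome Analysis Console and RMA. RMA output would be on a log2 scale, and these values are not, so how they were summarised is unknown. The values show that each array had the same mean of 500 after 2% trimming at each end. No detection calls were used.

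Of 45101 probe sets, 34945 had 1 gene symbol in the platform annotation, 932 had several, 9160 had none listed, and the other 64 were control probe sets. Those with 1 symbol were fitted as log2(signal + 1), with no further normalization or filter, in limma 3.58.1 (R 4.3.3) with 1 coefficient per group over all 6 arrays (3 residual degrees of freedom). eBayes was used with its default prior and Benjamini-Hochberg adjustment over all probe sets, and a call needed an adjusted p under 0.05. Fold changes are on this log2 scale, which understates changes of dim probe sets. Every ± is the default standard error, also beside a p-value from the fit with an intensity trend. No exact permutation test was run, since 2 arrays against 2 allow no p under 0.333. The number of arrays limits the precision.

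Members, gene lists, markers and the rule for named genes (all members, at most 4 called genes per list by smallest p, and the 3 genes most like the member with the smallest p) were chosen with earlier results of these data known. Casp8, Naip5 and Stat5a were named after their values were seen. The alternatives were quantile normalization, median centring, a pseudocount of 32, a minimum mean signal of 100, the intensity trend, 4 arrays per fit, 1 probe set or the mean per gene, leaving out each array, and an adjusted p under 0.10. The combinations of the trend with centring, quantile normalization and left-out arrays were added after seeing the data.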

Additional observations from a re-analysis of the deposited data

How the results depend on the processing

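The share of all features called moved with the setting, so each member count is read beside it. For WT day 4 over WT day 1 it was 9.19% in the main fit and 11.8% after quantile normalization. It was 5.83% after centring, 15.4% with a pseudocount of 32 and 20.7% with the trend. At a mean signal of at least 100 it was 35.3%, with 22 members tested. With 1 probe set per gene it was 13.3%, and with the mean 9.95%, over 9 members. In the main fit 3 member probe sets were called. There were 9 at an adjusted p under 0.10, where the share of all was not worked out. The count was 7 after quantile normalization, 0 after median centring, 11 with a pseudocount of 32 and 13 at a mean signal of at least 100. It was 11 with the intensity trend, 0 with only 4 arrays (0% of all), 5 with 1 probe set per gene and 1 with the mean per gene. When 1 array was left out the count moved in both directions, and the share of all was lower each time. The trend count of 11 became 6 with centring and 7 to 15 without 1 array. For heterozygous over WT day 4, the count of 0 became 1 at a mean signal of at least 100 (0.905% of all). With the trend it became 1 (2.37% of all). The trend count of 1 became 0 with centring (0.469% of all) and 0 with quantile normalization (2.06%). It rose without WT day 4 array 284, with calls in Mcl1, Bid and Bbc3, and fell without any other array. The share of all moved the same way each time. For heterozygous over WT day 1, the count of 1 (6.07% of all) became 3 with quantile normalization (7.62%) and 0 with centring (4.15%). The count was 6 at a mean signal of at least 100 (28.9% of all) and 4 with the trend (17.1%). With only 4 arrays it was 2 (7.53%), and with the mean per gene 0 (6.97%). The trend count of 4 became 0 with centring and 1 to 8 without 1 array.

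Directions turned from that of the brightest probe set in the main fit in 7 cases. Those marked mean per gene are not of the brightest probe set itself. Bcl2 ranged from -0.73 to 0.018 for WT day 4 over WT day 1 without 1 array, the last without WT day 1 array 303. For heterozygous over WT day 4, Bcl2 turned to 0.048 (quantile) and 0.17 (centring), Bcl2l1 to 0.0069 (centring) and 0.10 (mean per gene), and Bmf to -0.83 (mean per gene), and from -0.12 (without array 277) to 0.30 without 1 array. The cause was not tested. No paired analysis was possible because the groups share no replicate numbers. With 2 arrays per group a missed threshold does not show that levels were alike. Of the 30 probe sets, 10 were dim on at least 1 array, where signal over background limits what can be read.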
